A study of Mus musculus with 2 samples.

Results

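The plaque-associated microglia genes are 33 protein-coding mouse genes, listed by symbol, that microglia and related macrophages are known for around amyloid plaques. The members were taken from the list alone, with no threshold on expression, but the list was chosen with earlier results of these data known. All 33 were found among the 55536 annotated genes of the deposited tables. Total RNA of the hippocampus (layer of hippocampus tissue in the labels) was sequenced after ribosomal RNA reduction. There were 2 libraries, biological replicates 1 and 2 of 1 group. Both were taken from males of 5xFAD/CAST, adults of 8 to 10 months, a cross of the 5xFAD transgenic line to the CAST strain. The 5xFAD line carries human transgenes for amyloid production that the neuronal Thy1 promoter drives, and both libraries carry that genotype. Neither amyloid nor transgene RNA was measured here. The labels name separate tissue samples but give both the same donor identifier, so the spread between the libraries may be technical. Mice without the transgenes were not analysed here, and no level below can be compared with a plaque-free hippocampus. Reads of CAST alleles were counted against the mm10 reference, and the effect of that on the members was not tested.

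Microglia are the resident macrophages of the brain. In mouse models of amyloid deposition, microglia that touch plaques lower a set of homeostatic genes and raise genes of phagocytosis, lysosomal digestion, lipid uptake and matrix remodelling, and the later step of this change depends on the receptor TREM2 and its adaptor TYROBP. The result has been called the disease-associated or plaque-induced state, and its best known markers include Itgax, Clec7a, Cst7, Lpl, Axl, Cd9 and Spp1. Many of these genes are also made by other brain cells, so in bulk tissue their RNA is a sum over cell types, and fewer cells of a type cannot be told apart from less RNA per cell.

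Replicate 1 held 26128897 expected read counts over all deposited entries, spike-in RNA included, and replicate 2 held 28689423. At these totals 3 counts correspond to 0.115 and 0.105 CPM (counts scaled to library size). Homeostatic microglial markers were present in both, with all 12 listed genes (among them Csf1r and Cx3cr1) at TPM 1 or more (TPM is a level per transcript length, scaled to the same sum in each library). All 9 listed genes of hippocampal neurons were also at TPM 1 or more. Of the lists for other cells, markers of the choroid plexus, the epithelium that makes cerebrospinal fluid, stood apart: their summed level was TPM 1210 in replicate 1 and 186 in replicate 2. Meningeal fibroblast markers summed to TPM 126 and 68.3. None of the 9 markers of monocytes and neutrophils and none of the 9 markers of T, NK and B cells reached TPM 1 in both libraries of the alignment-based tables, and Chil3, Cd3d and the dendritic cell gene Xcr1 were listed at 0 there. The alignment-free tables that the authors also deposited listed Chil3 at 0 as well, but Cd3d at TPM 1.76 and 1.36 and Xcr1 at TPM 0.183 and 0.105.

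A few members share sequence with other genes, which bears on every value given for them. Lyz2, the lysozyme of macrophages, and Lyz1, the lysozyme of Paneth cells in the gut, are neighbouring genes on the minus strand (Lyz2 at chr10:117277331-117282321 and Lyz1 at chr10:117287797-117292868, GRCm38). The first 240 bases of their coding sequences, from the GENCODE M21 transcripts Lyz2-201 and Lyz1-201, are shown because reads must be divided between them. The capitals mark the bases that differ.

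Lyz2: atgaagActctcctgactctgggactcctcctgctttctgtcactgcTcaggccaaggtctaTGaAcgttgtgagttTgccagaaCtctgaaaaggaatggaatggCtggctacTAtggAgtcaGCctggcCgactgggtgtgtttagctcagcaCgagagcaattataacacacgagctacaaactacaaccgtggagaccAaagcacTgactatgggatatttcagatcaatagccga

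Lyz1: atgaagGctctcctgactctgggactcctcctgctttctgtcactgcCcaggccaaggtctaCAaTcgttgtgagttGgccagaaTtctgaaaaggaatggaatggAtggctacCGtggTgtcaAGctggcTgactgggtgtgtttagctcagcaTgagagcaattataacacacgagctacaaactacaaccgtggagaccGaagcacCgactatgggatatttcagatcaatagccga

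This stretch held 17 of the 22 differences between the full coding sequences of 447 bases. Over the full length the identity was 95.1%, and the longest identical run was 118 bases. Lyz1 received 230.37 expected counts in replicate 1 and 218.67 in replicate 2, beside 2458.63 and 2346.33 for Lyz2. Lyz1 thus held 8.57% and 8.53% of the pair's counts in the alignment-based tables, and 6.01% and 6.55% in the alignment-free tables. Whether the Lyz1 counts came from Lyz1 RNA was not tested.

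Of the 33 members, 5 had another annotated transcript with at least 90% identity over at least 200 bases, and 28 had none. Lilrb4a, an inhibitory receptor of the immunoglobulin superfamily, aligned to the neighbouring Lilr4b at 86.5% over the whole coding sequence, with an identical run of 126 bases. Gaps made up 100 of the 136 differing columns, and the match in the copy search had 95.7% identity over 1015 bases. Lilr4b held 30.4% and 21.9% of the pair's counts. A second annotated coding gene, Gm49339, is 100% identical to Lilrb4a over 1008 bases, the whole coding length, and was given 31.13 and 13.66 alignment-based counts and 24.4 and 37.9 alignment-free counts. The pseudogene copy Gm6166 of Fabp5 was given 123.51 and 187.11 counts by the alignment-based tables, which is 10.6% and 12.7% of the sum of both, but 3.24% and 3.91% by the alignment-free tables. The values of Lyz2, Lilrb4a and Fabp5 are therefore uncertain by the share that was given to their copies. For Cd63 the copy held 16.57 and 16.59 counts and Cd63 itself 1396.43 and 1340.41, and for Cd9 it held none.

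The promoters of Spp1 and Cst7 are shown for the short letter strings that they hold. Spp1, the secreted phosphoprotein osteopontin, differed more between the libraries than any other member. Cst7, the lysosomal protease inhibitor cystatin F, was the member with the highest level among those restricted to myeloid cells after Lyz2. The 250 bases before the RefSeq start (GRCm38.p6) were taken from chr5:104434861-104435110 for Spp1, at the first of its annotated starts, and from chr2:150570165-150570414 for Cst7, both on the plus strand. The capitals mark the match to GAGGAAGT, a core letter string of the myeloid factor PU.1, in Spp1. In Cst7 they mark a match to TCANGTGA, a loosened form of the M-box of the MITF and TFEB family. The open position N held A in Cst7.

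Spp1: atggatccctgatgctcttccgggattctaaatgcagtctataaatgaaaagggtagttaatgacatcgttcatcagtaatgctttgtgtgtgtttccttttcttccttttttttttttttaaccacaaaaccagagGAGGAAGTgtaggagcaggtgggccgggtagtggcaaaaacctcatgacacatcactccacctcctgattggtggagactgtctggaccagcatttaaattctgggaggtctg

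Cst7: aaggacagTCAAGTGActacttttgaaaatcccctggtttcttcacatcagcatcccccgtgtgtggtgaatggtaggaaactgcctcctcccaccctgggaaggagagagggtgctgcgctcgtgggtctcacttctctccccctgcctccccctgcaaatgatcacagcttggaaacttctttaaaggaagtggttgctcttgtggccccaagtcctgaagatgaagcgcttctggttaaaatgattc

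The match in Spp1 began 113 bases before the start and that in Cst7 began 242 bases before it. Windows of 300 bases (250 before and 50 after the start), searched on both strands, were found by symbol for 24 of the 33 members and for 27025 genes in all. The PU.1 string was in 1 of the 24 members (4.17%) and in 3.69% of all genes. The loosened M-box string was in 3 of 24 (Cst7, Hif1a and Lgals3, 12.5%) and in 4.78% of all genes. The E-box CACGTG was in 2 of 24 (Hif1a and Plin2; 8.33%) and in 8.09% of all genes. The loosened M-box string with C at its open position contains the E-box, so both counts can include the same bases. These matches describe letters in a short window and carry no test.

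In both libraries the list as a whole was readily detected. Of the 33 members, 32 were at TPM 1 or more in both (97.0%), beside 60.3% of 22015 protein-coding nuclear genes, and Hpse was the exception. The median member had TPM 17.6 in replicate 1 and 15.0 in replicate 2 (mean 16.3 ± 1.87, SD, n = 2), where the median protein-coding gene had 4.36 and 4.21. Because the list was chosen with earlier results of these data known, these comparisons with other genes are descriptions only. The mean levels ran from TPM 0.64 for Hpse to 126 for Cadm1, with 9 members at 50 or more, 12 from 10 to below 50, 11 from 1 to below 10 and 1 below 1. The 5 members with the highest levels held 46.4% of the summed TPM of the list in replicate 1 and 46.0% in replicate 2. Among the highest levels were genes that many brain cells make: of the 9 members at TPM 50 or more, only Lyz2 and Cst7 were classed as restricted to myeloid cells from background knowledge.

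The 10 myeloid-restricted members had a median of TPM 14.8 and 13.4 (14.1 ± 0.969, SD, n = 2). The 15 broadly expressed members had a median of TPM 32.6 and 36.5 (34.6 ± 2.76), and the other 8 were not classed. The log2 ratio of the myeloid-restricted over the broadly expressed median was -1.14 in replicate 1 and -1.44 in replicate 2. Against the 12 homeostatic microglial markers, whose median was TPM 30.1 and 29.2, the median of all members had a log2 ratio of -0.78 and -0.97. Single members lay on both sides of that median. On the log2 TPM scale Lyz2 was above it by 1.89 and 1.77, Cst7 by 1.10 and 1.08 and Cd68 by 0.40 and 0.53. Itgax had differences of -0.78 and -0.81, Clec7a of -1.55 and -1.29 and Spp1 of -1.30 and -2.34. These ratios depend on which genes were put in each list.

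**Figure D1:**
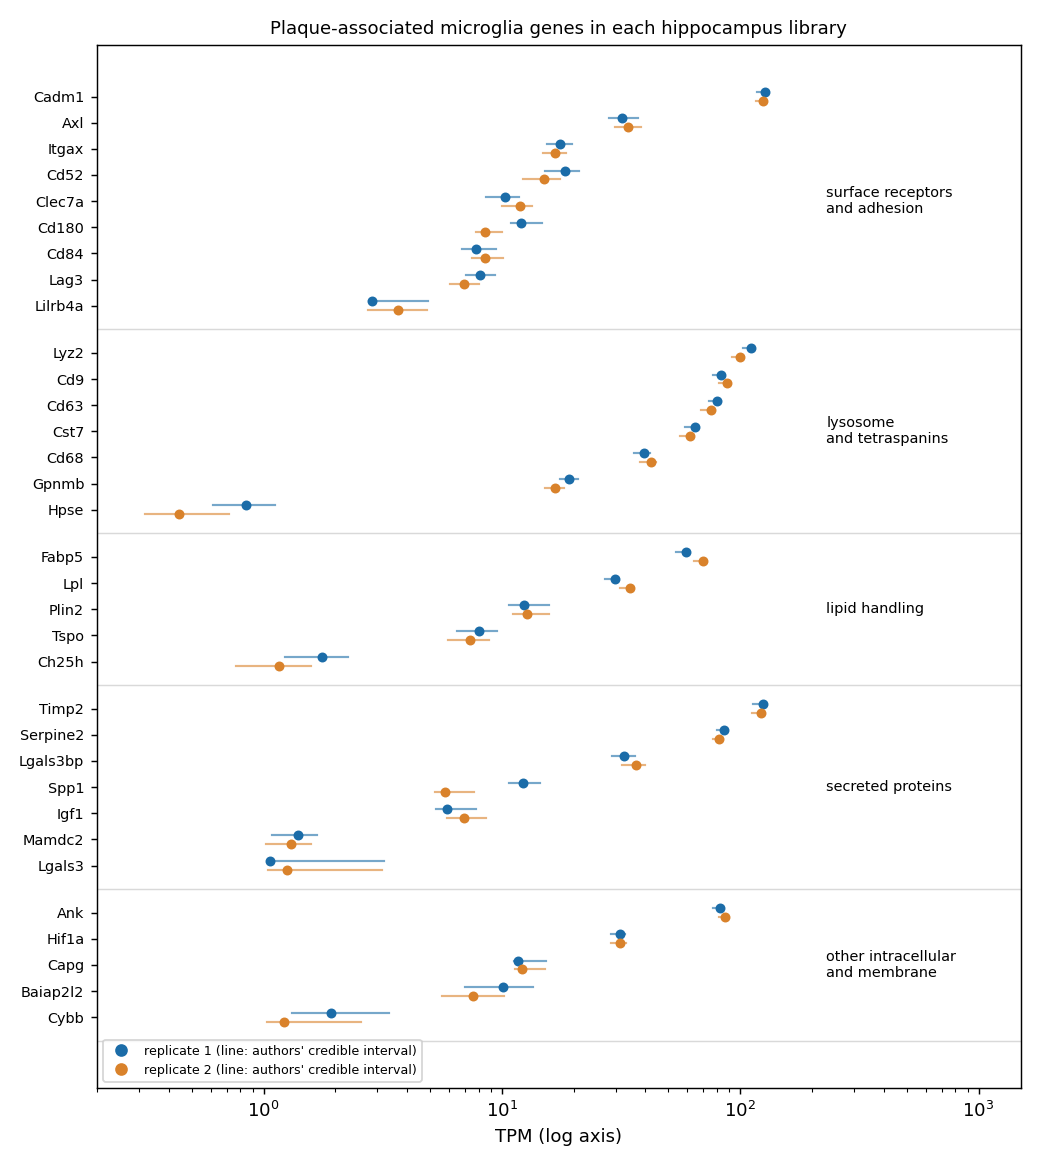
Level of each of the 33 members in the 2 libraries, in TPM on a log axis, grouped by role. Points are the deposited TPM values of replicate 1 and replicate 2 and lines are the authors' credible intervals, which cover uncertainty in assigning reads within a library. Members span TPM 0.64 to 126 in their mean. The intervals of Cd180, Fabp5, Lpl, Lyz2 and Spp1 do not overlap between the libraries, and the share of all genes without overlap was not computed.

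Between the libraries the members differed little. A two-sided exact conditional binomial test of the rounded counts, with library sizes scaled by the trimmed mean of M-values (TMM) and Benjamini-Hochberg adjustment over 16971 genes with a mean count of at least 20, set the libraries against counting error and not a condition against another. At an adjusted p under 0.05, 9 of 33 members (27.3%) were called, beside 18.0% of all genes tested. Of these, 7 (21.2%) were higher in replicate 1, where 8.89% of all genes were called, and 2 (6.06%) were higher in replicate 2, where 9.07% were. At an unadjusted p under 0.05 there were 12 members, beside 29.1% of all genes. In TMM-scaled counts no member differed by more than 2-fold, while 2.01% of all genes did; in TPM the log2 ratio of Spp1 was -1.08. The median absolute log2 ratio was 0.10 over members and 0.12 over all genes tested.

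More members were higher in replicate 1 than in replicate 2. The median log2 ratio of replicate 2 over replicate 1 was -0.09 over the 33 members and 0.00 over all genes, with a range from -0.98 to 0.20. The ratio was below 0 for 25 members (75.8%), beside 50.3% of all genes. Scaling by ERCC spike-in RNA moved the median of all genes by 0.27 and made 28 of the 33 ratios positive. A scaling moves all genes alike, so the position of a gene relative to the median of all genes does not depend on it: 25 members lay below that median. Of the homeostatic microglial markers, 12 of 12 lay below it, with a median of -0.10 under TMM that turned to 0.17 with the spike-ins. Choroid plexus markers had a median of -2.71, with all 10 called lower in replicate 2 under TMM, and meningeal fibroblast markers had a median of -0.64, with 5 of 7 called lower. Border macrophage markers had a median of -0.37 over the 4 tested genes, with 3 called lower (Stab1, Mrc1 and F13a1), and turned to -0.11 with the spike-ins. Below the median of all genes also lay 6 of 6 endothelial, 6 of 6 oligodendrocyte and 5 of 6 astrocyte markers. Their medians under TMM were -0.18, -0.04 and -0.06. The hippocampal neuron list went the other way, with a median of 0.20 and 7 of 9 called higher in replicate 2. So did the 6 general neuron markers, with a median of 0.15, 4 called higher and 1 called lower in replicate 2. What these marker differences contribute to the members' ratios was not tested.

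**Figure D2:**
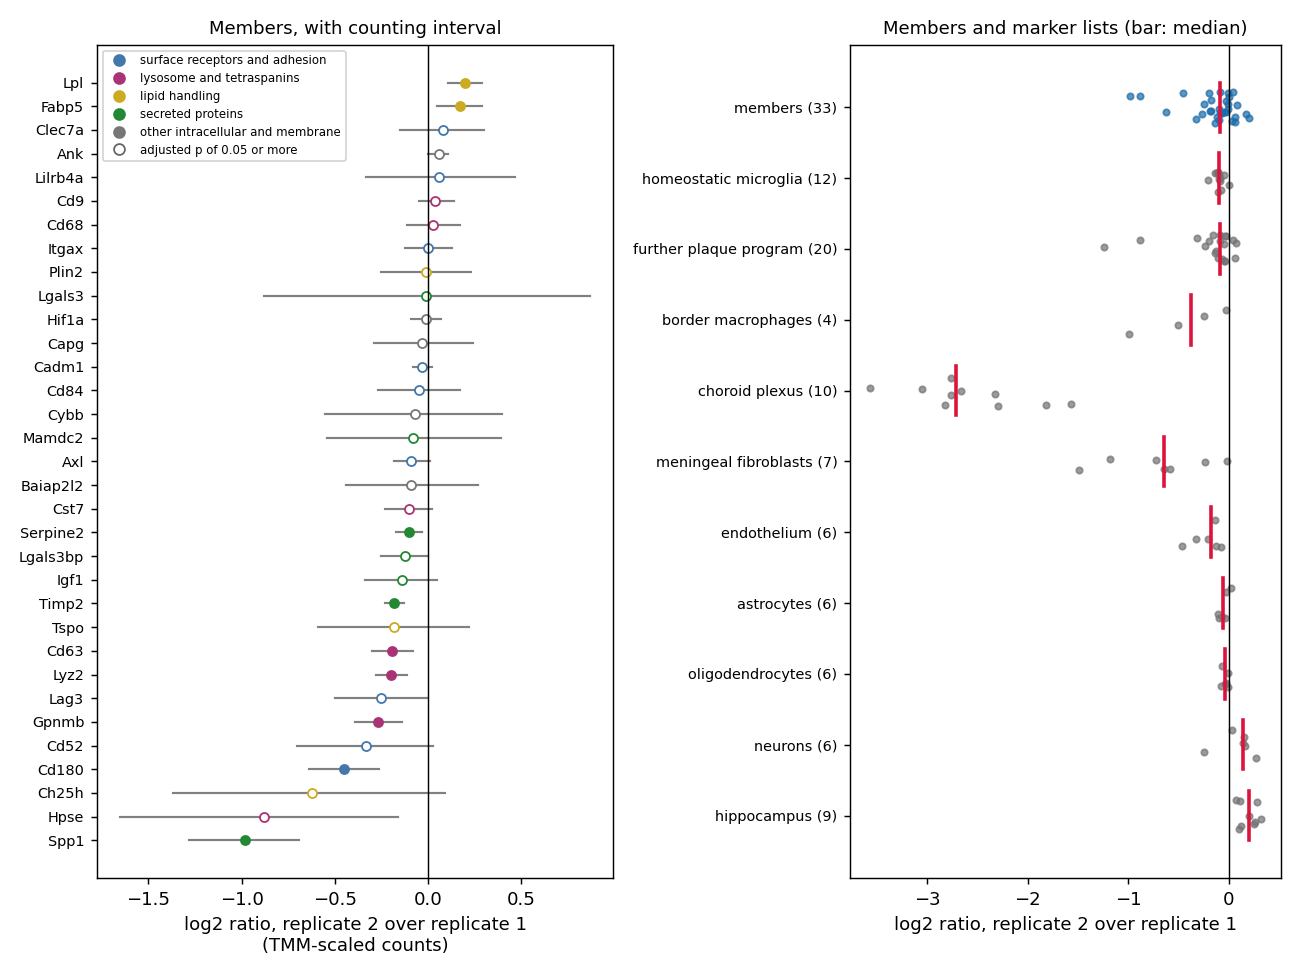
Left, log2 ratio of replicate 2 over replicate 1 of TMM-scaled counts for each member, coloured by role, with its 95% counting interval as a line; filled points have an adjusted p under 0.05. Right, the same ratio for each gene with a mean count of at least 20 in the member list and in the marker lists, with the list's median as a bar and the number of genes in brackets; members centre at -0.09 and choroid plexus markers at -2.71.

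The 9 surface receptors and adhesion molecules had a median of TPM 12 in replicate 1 and 11.9 in replicate 2, and 1 of 9 was called, higher in replicate 1, beside 8.89% of all genes. Cadm1 (chr9:47530173-47857637, plus strand), a cell adhesion molecule that neurons and glia also make, was the highest of all members at TPM 127.05 and 125.13. Axl (chr7:25757273-25788705, minus strand), a receptor kinase for phosphatidylserine-bridging ligands on dying cells and debris, was at TPM 31.96 and 33.69. Both genes are classed as broadly expressed, and for both the values of the libraries lay close together. Itgax (chr7:128129547-128150657, plus strand), the integrin CD11c that marks plaque-touching microglia and dendritic cells, was at TPM 17.61 and 16.68. The dendritic cell list had 2 of 6 genes at TPM 1 or more in both libraries, Zbtb46 at 4.22 and 4.33 and Flt3 at 3.24 and 3.74, and their part in the Itgax level was not tested. Clec7a (chr6:129461591-129472779, minus strand), the beta-glucan receptor dectin-1, was at TPM 10.31 and 11.92.

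Cd180 (chr13:102693558-102739629, plus strand), a relative of the Toll-like receptors, was the receptor that differed, with 504 counts in replicate 1 and 404 in replicate 2 (TPM 12.01 and 8.48). Its log2 ratio of counts was -0.45 (95% counting interval -0.64 to -0.26; exact binomial test, Benjamini-Hochberg adjusted p = 6.53e-05). The gene lies over Mast4 on the opposite strand, which had 3087 and 3658 counts. The library kit was directional per the labels, but whether the counting used strand is not given in the sources used here. With the spike-in scaling the ratio of Cd180 was -0.18 and the call was lost. Cd52 (chr4:134082448-134095082, minus strand), a short glycoprotein of leukocytes, was at TPM 18.37 and 14.96, from 138 and 120 counts. Its ratio of -0.33 had a wide interval of -0.70 to 0.03, so no difference was detectable at this depth.

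Cd84 (chr1:171839697-171890718, plus strand), a self-binding receptor of the SLAM family, was at TPM 7.76 and 8.47. Lag3 (chr6:124904361-124911705, minus strand), an inhibitory receptor best known on T cells, was at TPM 8.06 and 6.95. The 9 genes of the list for T, NK and B cells summed to TPM 1.54 and 0.62 in the alignment-based tables. The part of such cells in the Lag3 level was not tested. Lilrb4a (chr10:51490956-51496611, plus strand) was the lowest of the receptors at TPM 2.86 and 3.65, from 102.2 and 116.64 counts. The identical copy Gm49339 overlaps it on the same strand, so the level of Lilrb4a is uncertain by the counts given to that copy as well as to Lilr4b.

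Lysosomal proteins and tetraspanins formed the group with the highest median, TPM 64.6 in replicate 1 and 61.6 in replicate 2 over 7 genes, and 3 of 7 were called, all higher in replicate 1, beside 8.89% of all genes. Lyz2, which digests bacterial walls in the lysosome, was at TPM 111.45 and 99.58. Its log2 ratio of counts was -0.20 (-0.28 to -0.11; exact binomial test, Benjamini-Hochberg adjusted p = 4.78e-05). Cd9 (chr6:125460266-125494791, minus strand) was at TPM 83.36 and 87.99 and Cd63 (chr10:128900989-128912822, plus strand) at 79.60 and 75.09. Both are tetraspanins, which organise other membrane proteins, and Cd63 sits in late endosomes and lysosomes. For Cd63 the log2 ratio of counts was -0.19 (-0.30 to -0.08; exact binomial test, adjusted p = 0.00681). Cst7 (chr2:150570415-150578944, plus strand), whose product restrains cathepsins, was at TPM 64.64 and 61.57, from 1039 and 1057 counts. Its ratio of -0.10 had an interval of -0.23 to 0.02 that included 0.

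Cd68 (chr11:69664213-69666153, minus strand), a heavily glycosylated protein of the lysosome membrane, was at TPM 39.64 and 42.27. Gpnmb (chr6:49036546-49070929, plus strand), a glycoprotein of lysosomes and melanosomes, was at TPM 19.12 and 16.66. Its 1060 and 964 counts gave a log2 ratio of -0.27 (-0.39 to -0.14; exact binomial test, Benjamini-Hochberg adjusted p = 0.000549). With the spike-in scaling the ratios of Lyz2, Cd63 and Gpnmb were 0.07, 0.08 and 0.00, each below the 0.27 of the median gene, and none of them was called. Hpse (chr5:100679484-100719716, minus strand), heparanase, which cuts heparan sulphate, was the lowest member of all at TPM 0.84 and 0.44. Only 44 and 26 counts lay behind these values, and the ratio of -0.88 (-1.65 to -0.16) did not pass the adjusted threshold (exact test, p = 0.0159, Benjamini-Hochberg adjusted p = 0.0762).

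The 5 genes of lipid handling had a median of TPM 12.3 in replicate 1 and 12.8 in replicate 2 and gave the only calls in the other direction, 2 of 5, beside 9.07% of all genes. Fabp5 (chr3:10012548-10016607, plus strand), a carrier of fatty acids in the cytosol, was at TPM 59.43 and 70.09, with a log2 ratio of counts of 0.17 (0.05 to 0.29; exact binomial test, adjusted p = 0.0333). Its pseudogene copy Gm6166 had a ratio of 0.47 in the same direction. Lpl (chr8:68880491-68907448, plus strand), the lipase that releases fatty acids from lipoproteins, was at TPM 29.92 and 34.34, with a ratio of 0.20 (0.11 to 0.29; exact binomial test, adjusted p = 0.000115). Lpl is also made by hippocampal neurons, whose listed markers were higher in replicate 2 as well, and that was not separated from microglial Lpl here.

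Plin2 (chr4:86648386-86670060, minus strand), the coat protein of lipid droplets, was at TPM 12.34 and 12.78. Tspo (chr15:83563592-83574203, plus strand), the outer mitochondrial membrane protein that brain imaging uses as a sign of inflammation, was at TPM 8.00 and 7.35, from 107 and 103 counts. It lies over Mcat on the opposite strand, which had 300 and 322 counts. Ch25h (chr19:34473778-34475164, minus strand), which makes 25-hydroxycholesterol, was at TPM 1.76 and 1.16. Its 41 and 29 counts gave a ratio of -0.62 with an interval of -1.37 to 0.09, so no difference was detectable at this depth.

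The 7 secreted proteins had a median of TPM 12.2 in replicate 1 and 6.95 in replicate 2. All 7 ratios were below 0 under TMM, with a median of -0.12, beside 50.3% of all genes, and 3 of 7 were called higher in replicate 1, beside 8.89% of all genes. With the spike-ins 6 of the 7 turned positive. Spp1 (chr5:104435118-104441050, plus strand), which binds integrins and CD44, had the largest difference of any member, from TPM 12.25 in replicate 1 to 5.79 in replicate 2 and from 266 to 147 counts. That was 1.97-fold after scaling, a log2 ratio of -0.98 (-1.28 to -0.69; exact binomial test, Benjamini-Hochberg adjusted p = 5.68e-10). The direction was the same under the spike-in scaling and in the alignment-free table, and the call held. Spp1 RNA is not restricted to microglia in brain. The choroid plexus, meningeal and border macrophage lists were all higher in replicate 1 as well, and their part in the Spp1 difference was not tested.

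Timp2 (chr11:118301069-118355740, minus strand), an inhibitor of matrix metalloproteinases, was at TPM 124.57 and 122.39. Although the TPM values lay close together, the log2 ratio of its 6761 and 6532 counts was -0.18 (-0.23 to -0.13; exact binomial test, adjusted p = 4.91e-11). Serpine2 (chr1:79794197-79861180, minus strand), a thrombin and plasmin inhibitor that astrocytes make, was at TPM 85.17 and 81.13, with a ratio of -0.10 (-0.17 to -0.03; exact binomial test, adjusted p = 0.0274). That call was lost with DESeq2 size factors and with the alignment-free counts. With the spike-ins both genes changed sign, to 0.09 and 0.16, and were called in that direction.

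Lgals3bp (chr11:118392751-118402092, minus strand), a galectin-binding glycoprotein, was at TPM 32.63 and 36.53. Igf1 (chr10:87858265-87937042, plus strand), the growth factor, was at TPM 5.86 and 6.95. For both, TPM was higher in replicate 2 while the scaled counts were lower there, with log2 ratios of 0.16 against -0.12 for Lgals3bp and 0.25 against -0.14 for Igf1. Neither count ratio was called. Mamdc2 (chr19:23302609-23448442, minus strand), a proteoglycan of the matrix, was at TPM 1.39 and 1.30. Lgals3 (chr14:47367751-47386160, plus strand), galectin-3, which binds damaged lysosomes, was at TPM 1.06 and 1.25 from only 23 and 25 counts. Its 95% counting interval for the log2 ratio was the widest of the group and included 0.

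The other 5 members had a median of TPM 11.7 in replicate 1 and 12.1 in replicate 2. None of them was called, beside 18.0% of all genes tested. In the same exact test 1 had an unadjusted p under 0.05, beside 29.1% of all genes. Ank (chr15:27466677-27594909, plus strand), a membrane protein of phosphate and ATP export, was at TPM 82.21 and 86.29. Its ratio of 0.06 was called under DESeq2 size factors and under the spike-ins, where it was 0.07 and 0.32. Hif1a (chr12:73901375-73947530, plus strand), the oxygen-regulated transcription factor, was at TPM 31.25 and 31.36. Capg (chr6:72544391-72562983, plus strand), which caps actin filaments, was at TPM 11.74 and 12.13. Baiap2l2 (chr15:79258195-79285537, minus strand), a membrane-bending protein, was at TPM 10.12 and 7.57, although its 133 and 137 counts hardly differed. Cybb (chrX:9435252-9487771, minus strand), the catalytic subunit of the phagocyte NADPH oxidase, was at TPM 1.92 and 1.22 from 76 and 79 counts.

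Other genes of the same program had a higher median level in the bulk tissue. They were not classed as myeloid-restricted or broadly expressed, so this level cannot be read as microglial. The 20 further genes, cathepsins, antigen presentation and TREM2 signalling among them, had a median of TPM 73.7 in replicate 1 and 76.0 in replicate 2, and all 20 were at TPM 1 or more in both libraries. The highest were Apoe at 1791.16 and 1666.74, Fth1 at 1537.89 and 1657.34 and Ctsd at 664.66 and 649.46. The median log2 ratio was -0.09, as for the members, with 6 of 20 called lower and 1 called higher in replicate 2 (exact binomial test), beside 8.89% and 9.07% of all genes. With the spike-ins the median was 0.18. Of 12 transcription factors that regulate macrophage and lysosome genes, 11 were at TPM 1 or more and were tested. The other, Tfec, had too few counts for the test. None of the 11 was called by the exact binomial test, beside 18.0% of all genes tested. An unadjusted p under 0.05 in that test was found for 4 of them, beside 29.1% of all genes.

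The transcript tables showed which RNA form stood behind each gene value. Of the 33 members, 30 have several annotated transcripts and 3 (Cst7, Lyz2 and Ch25h) have 1. The leading transcript, the one with the highest share of the gene's TPM, did not depend on the table (alignment-based or alignment-free) or the library for 25 members. It did for 8: Cd84, Lilrb4a, Cd63, Spp1, Lgals3, Baiap2l2, Capg and Cybb. Protein-coding transcripts held 90% or more of the alignment-based TPM for 24 members and under 50% for 3. Those 3 were Clec7a, Lilrb4a and Baiap2l2, and they were also the 3 whose leading transcript is not annotated as protein coding.

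For Clec7a the leading transcript was Clec7a-204, annotated as a polymorphic pseudogene, with 67.2% and 60.0% of the alignment-based TPM and 67.3% and 66.2% of the alignment-free TPM. A polymorphic pseudogene is a locus that is broken in the reference genome but intact in some strains, and the next transcript, Clec7a-202, is annotated as coding and held 29.4% and 40.0%. For Lilrb4a the annotated coding transcripts were at 0 in replicate 1, and in replicate 2 Lilrb4a-212 was at TPM 0.91. The retained-intron form Lilrb4a-206 held 41.1% of the TPM in replicate 1 and 16.2% in replicate 2, where Lilrb4a-212 and the retained-intron form Lilrb4a-207 were higher, at 24.9% and 24.7%. Coding reads of Lilrb4a can also be assigned to its identical copy Gm49339, so these shares do not show how much coding RNA the gene makes. For Baiap2l2 the processed transcript Baiap2l2-204 led in the alignment-based tables, at TPM 4.08 in both libraries. The retained-intron form Baiap2l2-202 was at TPM 3.48 and 0.84 there, from 11.54 and 2.99 counts, which is where the TPM difference of the gene lay in those tables. The alignment-free tables gave 3.52 and 3.07 for Baiap2l2-202 and 3.53 and 2.33 for Baiap2l2-204. In the alignment-based tables Cybb-205 was at TPM 0.71 and 0.13 from 3.73 and 0.74 counts, while Cybb-201 was at 0.79 and 0.83.

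The division of Spp1 among transcripts depended on the method. In the alignment-based tables Spp1-201 led at TPM 6.87 and 3.42, followed by Spp1-202 at 2.44 and 2.37. The alignment-free tables listed both at or near 0 and gave the reads to Spp1-205 at TPM 7.98 and 4.84 and Spp1-207 at 5.08 and 1.50. All 4 of these transcripts are coding, so the gene-level difference was present in either table but the isoform behind it could not be told. Cd63 behaved alike, with Cd63-202 at TPM 67.0 and 57.6 in the alignment-based tables and 26.3 and 22.8 in the others, where Cd63-206 led at 39.7 and 37.0. Cd9-201 held 98.7% and 98.5% of its gene in the former tables and 63.2% and 72.9% in the latter.

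**Figure D3:**
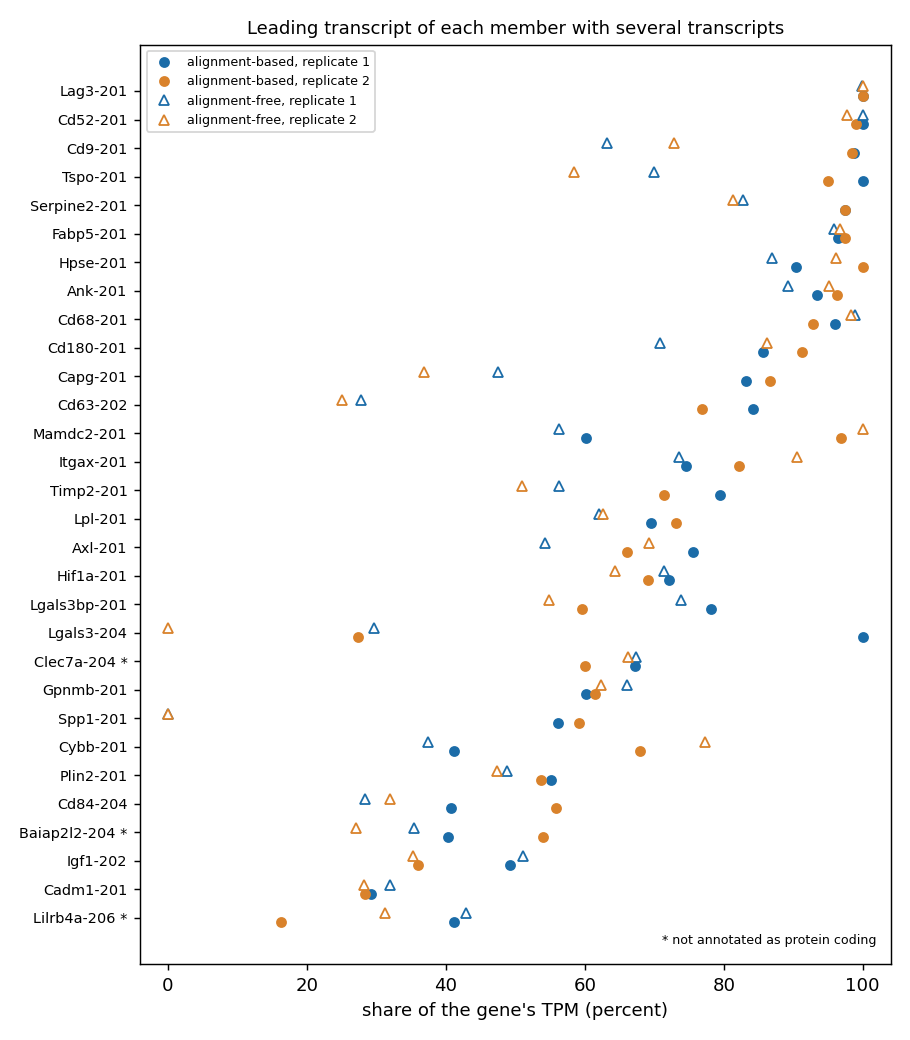
Share of each gene's TPM held by its leading transcript, in percent, for the 30 members with several annotated transcripts. Filled circles are the alignment-based and open triangles the alignment-free tables, blue for replicate 1 and orange for replicate 2, and an asterisk marks a leading transcript that is not annotated as protein coding; Spp1-201 holds 56.1% and 59.1% in the first and is at or near 0 in the second.

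At the gene level the quantifications lay closer together. The alignment-free count was 1.11 times the alignment-based count for the median member in both libraries. For the median protein-coding gene, among those with at least 20 counts in the library, it was 1.15 times. Most members lay within the 5th to 95th percentile of protein-coding genes. Cd52 was the lowest member in both libraries, at ratios of 0.775 and 0.783, which is percentile 0.869 and 0.802 among protein-coding genes. Cybb was the highest, at 1.50 and 1.49 (percentile 96.6 and 96.3). Clec7a was low in both libraries, at 1.01 and 0.966. Outside that range in 1 library only were Ch25h in replicate 1 and Cd84, Lilrb4a and Lgals3 in replicate 2.

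**Figure D4:**
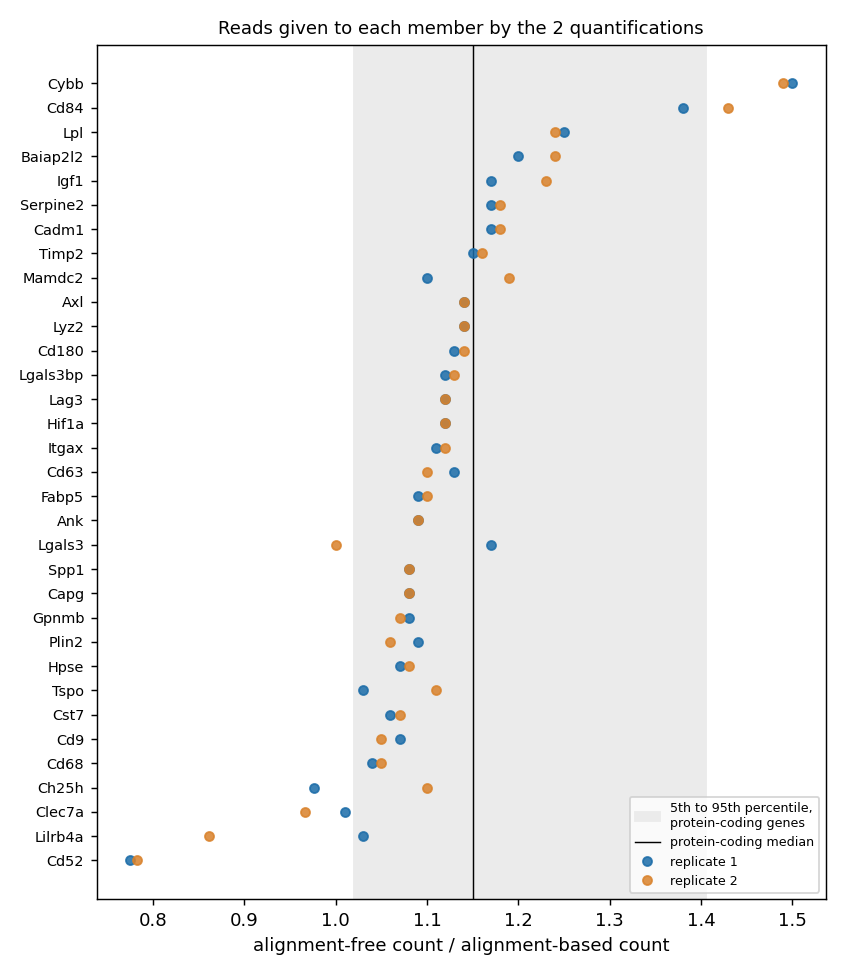
Alignment-free count divided by alignment-based count for each member, replicate 1 in blue and replicate 2 in orange. The grey band spans the 5th to 95th percentile of protein-coding genes with at least 20 counts, each bound being the mean of both libraries. The line is their median of 1.15. Cd52 lies below the band at 0.775 and 0.783 and Cybb above it at 1.50 and 1.49.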

How the data were processed

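Total RNA from 2 mouse hippocampus samples was made into directional libraries from 300 ng of RNA with ERCC spike-ins, per the labels' protocols. The authors deposited, per the file headers, expected counts and TPM per gene with a posterior mean TPM and credible bounds, and expected counts, TPM and the percent of the gene's TPM per transcript, in the unit of 1 library per file on mm10 with GENCODE M21. Names and versions of the programs that aligned and quantified the reads were not given in the sources used here. Transcript shares were recomputed from TPM, also for the second, alignment-free transcript tables, whose estimated counts and TPM the authors deposited and which were summed per gene. Replicate 1 held 26128897 and replicate 2 held 28689423 expected counts; entries named by a number only (2.3e-05% and 1.74e-05%) and the 96 ERCC sequences (0.541% and 0.448%) were left out of the tests.

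Expected counts were rounded and compared with an exact conditional binomial test in scipy 1.17.1, on library sizes scaled by TMM (edgeR 4.0.16) and adjusted by Benjamini-Hochberg over genes with a mean count of at least 20. With 1 library a side a test between the libraries has no residual degrees of freedom, so the test and the 95% intervals cover counting error only. With both libraries taken as replicates of their group, edgeR gave a common biological coefficient of variation of 0.0886 over 18082 genes. DESeq2 1.42.0 size factors were an alternative. Log2 ratios used a prior count of 0.5. Copies of members were searched with BLAST 2.17.0. The test was checked on simulated counts that held counting error only, so that check does not cover spread beyond counting error. Named were all members, their close copies and the 3 highest genes of a list a result turned on, of which 1 is not reported here; other markers named for a count (Stab1, Mrc1, F13a1, Zbtb46, Flt3, Chil3, Cd3d, Xcr1, Tfec) and the genes that overlap members (Mast4, Mcat, Gm49339) were named after their values were seen. The members, roles and lists were chosen with earlier results of these data known.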

Additional observations from a re-analysis of the deposited data

How the results depend on the processing

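The count of members called was 9, and 7 to 9 under DESeq2 size factors, plain library size, a mean count of at least 100, no low-count filter, the alignment-free table and an adjusted p under 0.01. With ERCC spike-in scaling it was 15, 14 of them higher in replicate 2, with 5 of the 9 among them, and the median log2 ratio of the members turned to 0.18 from -0.09, where the median of all genes moved to 0.27. The cause of the spike-in difference was not tested. Single members changed sign with the spike-ins as follows: Axl 0.18, Baiap2l2 0.18, Cadm1 0.23, Capg 0.24, Cd63 0.08, Cd84 0.21, Cst7 0.16, Cybb 0.19, Gpnmb 0.00, Hif1a 0.25, Igf1 0.13, Lag3 0.02, Lgals3 0.26, Lgals3bp 0.14, Lyz2 0.07, Mamdc2 0.19, Plin2 0.26, Serpine2 0.16, Timp2 0.09 and Tspo 0.08. With DESeq2 size factors Hif1a, Lgals3 and Plin2 were at 0.01. In the alignment-free table Cd84 was at 0.00, Hif1a at 0.01, Lilrb4a at -0.18 and Mamdc2 at 0.05, and with library size Itgax was at 0.00. Of all member ratios recomputed, 28 changed sign, whether or not their call changed too. Among those that kept their sign, 155 kept their side of the threshold, 6 newly passed it and 4 no longer did. The call of Fabp5 was lost with no low-count filter.

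The median TPM of the members was 36.1 when TPM was rescaled to protein-coding nuclear genes, against 16.3, and 15.0 to 17.6 with 1 library left out. The log2 ratio of members over homeostatic markers was -0.87 (-0.97 to -0.78 with 1 library left out), -1.04 as a mean of log2(TPM + 0.1) and -1.07 with myeloid-restricted members only. The ratio of myeloid-restricted over broadly expressed members was -1.44 to -1.14 with 1 library left out. The alignment-free over alignment-based ratio was 0.967 with TPM in place of counts. The leading transcript was shared by 15 of the 19 members with several transcripts at TPM 1 or more, against 25 of 33, and by 27 to 29 with 1 library left out. Detection gave 27 to 33 members over all thresholds. The median ratio for myeloid-restricted members only, chosen after seeing the data, was -0.06. The comparison of the libraries needs both, so no replicate could be left out of it. No paired analysis was possible because both libraries belong to 1 group. Depth limits the members under a mean count of 100, of which there were 5.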

Other observations

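Among the further plaque program genes, 2 chemokine and pattern-recognition genes lay farthest from the median of the list, and they were named after their values were seen. Ccl4, a chemokine that attracts immune cells, had 33 counts in replicate 1 and a log2 ratio of -1.24 (95% counting interval -2.25 to -0.35; exact binomial test, Benjamini-Hochberg adjusted p = 0.034). Tlr2, a receptor for bacterial lipoproteins, had a ratio of -0.88 (-1.23 to -0.54; exact binomial test, adjusted p = 4.15e-06). The myeloid receptor gene Trem2 and its adaptor Tyrobp had ratios of -0.04 (-0.13 to 0.06) and 0.04 (-0.05 to 0.14), and neither was called. Cd4, which is listed among the T cell markers and which macrophages can also make, had 43 counts in replicate 1 and 9 in replicate 2 of the alignment-based tables and 70 and 21 in the alignment-free tables. Cd3d was listed at 0 in the former and had 59.1 and 45.9 counts in the latter.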
